A study of Mus musculus with 6 samples.

Results

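The genes described here are the progesterone receptor gene Pgr, the Indian hedgehog gene Ihh, the hedgehog receptor and response genes Ptch1, Smo, Hhip, Gli1, Gli2 and Gli3, and Nr2f2, which encodes the orphan nuclear receptor COUP-TFII. They were taken by name: every probe set annotated to 1 gene symbol that was one of these 9 was kept, which gave 26 probe sets of 45037 tested, and all 9 genes were represented among 18193 measured genes. No probe set annotated to several genes named any of them. RNA of uterine horns from C57BL6J mice was measured on Affymetrix Mouse Genome 430 2.0 arrays, 3 arrays a group, with RNA of 2 mice pooled on each array and the cervix left out. Control uteri carried SF1LsL/+, a conditional allele for the nuclear receptor SF1 (gene Nr5a1), without Cre, and SF1 uteri carried the same allele together with Pgrcre/+, a Cre allele at the Pgr locus. Expression of SF1 was thereby directed to cells in which Pgr is or was active, and only the SF1 group had a Pgr allele that holds Cre, so the effects of SF1, of Cre and of a changed Pgr allele cannot be told apart in these arrays. All tissue was taken 2 weeks after a surgery. The kind of surgery, the age and the hormonal state of the mice are not given in the sources used here.

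In the mouse uterus, progesterone acts through its receptor in the epithelium to raise Ihh, a secreted ligand. IHH reaches the underlying stroma, binds the receptor PTCH1 and so frees the transducer SMO, which sets the balance between activating and repressing forms of the GLI transcription factors. Ptch1, Gli1 and Hhip are themselves switched on by the pathway and are widely used as its readout, and COUP-TFII acts in the stroma downstream of IHH. This relay from epithelium to stroma prepares the uterus for implantation.

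The arrays resembled their own group more than the other. Mean correlations of log2 values with arrays of the same group were 0.9888 to 0.9925, and with the other group 0.9672 to 0.9761. Nr5a1 itself read 138.8 to 171.5 intensity units in control and 151.2 to 151.4 in SF1 on its brighter probe set (log2 change 0.00, limma adjusted p = 0.992). Its position with respect to the conditional allele is unknown here, and the reading is therefore no check on the labels. The uterine identity genes Hoxa10, Hoxa11, Esr1, Msx1, Hand2 and Foxl2 read at least 538.2 units on every array. SF1 replicate 2 stood apart in the neutrophil gene S100a8 (11518 units, against 327.3 and 191.8 in SF1 replicates 1 and 3), and SF1 replicate 3 was low in fat cell genes (mean log2 level 8.73, against 10.08 to 11.18 in the other 5 arrays). Leaving out either array changed no call among the brightest probe sets of the 9 genes.

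Of the 9 genes, 7 fell in SF1 uteri and 0 rose (limma, Benjamini-Hochberg adjusted p under 0.05 over all probe sets, brightest probe set of each gene; at an unadjusted p under 0.05 the counts were 8 and 0). Pgr, Ihh, Ptch1 and Gli1 kept between 34.9% and 39.7% of their control means, Gli2, Gli3 and Nr2f2 between 61.0% and 67.6%, and Smo and Hhip did not pass the test. Across all genes, 8.11% fell and 8.45% rose. At an unadjusted p under 0.05 in limma, 3344 of all 18193 genes fell and 2496 rose. The 9 genes were chosen with earlier results of these data known, so an excess over these shares may come from that choice. Of the 26 probe sets, 17 fell and 0 rose, where 8.08% of all probe sets fell and 5.88% rose. Of all called probe sets, falls made up 57.9% with the values as deposited; quantile normalization put this share at 47.9% and median centring at 43.5%, and the counts for the 9 genes and their 26 probe sets were the same under both. For all 9 genes (brightest probe set) and for 21 of the 26 probe sets every SF1 array read below every control array, against 23.7% of all genes and 24.6% of all probe sets. Values are given as linear intensity units of the deposited table. Changes are SF1 minus control on log2 of the intensity plus 16, which understates the change of dim probe sets, and intervals are 95% intervals of the limma fit. Whether the pools of mice were prepared separately throughout is not stated, so the p-values measure the spread between these arrays.

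Pgr, the gene of the ligand-activated receptor at the head of the axis, read 4899, 4747 and 4744 intensity units in control (replicates 1, 2 and 3, the order used throughout) and 1932, 1719 and 2027 in SF1. Every SF1 array lay far below every control array, and the spread within each group was small beside the gap. The SF1 mean was 39.5% of the control mean (4797 ± 89.0 against 1893 ± 158, SD, n = 3), and the log2 change was -1.34 (95% interval -1.53 to -1.14, adjusted p = 3.23e-05 in limma). Both dimmer probe sets of Pgr also fell. They kept 55.7% and 50.3% of their control means, with log2 changes of -0.79 and -0.90 (adjusted p = 0.0016 and 0.000189). The 3 probe sets therefore gave one direction and different sizes. Their positions in the Pgr transcript relative to the Cre insertion are not known here.

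Ihh, the ligand gene, had 1 probe set. It read 182.3, 191.0 and 186.8 units in control and 63.9, 57.9 and 73.5 in SF1. The groups did not overlap, and the SF1 values were below the median intensity of their arrays (149.9 to 159.6). All SF1 values were also under 100 units, the cut used here for dim probe sets. The size of the fall therefore rests on readings at levels where the unstated background handling of the deposited values matters most. SF1 uteri kept 34.9% of the control mean (186.7 ± 4.35 against 65.1 ± 7.89, SD, n = 3), and the log2 change was -1.33 with an interval from -1.53 to -1.12 (adjusted p = 4.31e-05).

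Ptch1 encodes the receptor that holds SMO inactive until hedgehog binds. Its brightest probe set read 4894, 5244 and 4399 units in control and 1899, 1650 and 2098 in SF1. The lowest control array was still far above the highest SF1 array. The log2 change was -1.36 (interval -1.61 to -1.11, adjusted p = 0.000107), and 38.8% of the control mean was kept. A second probe set fell more, from 681.8 ± 13.6 to 216.6 ± 15.7 units (-1.59, adjusted p = 1.2e-05). The third, at 116.3 ± 9.19 and 99.0 ± 8.68 units, did not pass the test (-0.20, interval -0.41 to 0.00, adjusted p = 0.172), although its groups did not overlap either.

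Gli1, a transcription factor gene that is itself a target of the pathway, read 946.7, 997.1 and 979.3 units in control and 333.2, 364.8 and 463.4 in SF1. It fell by 1.31 on the log2 scale (interval -1.58 to -1.04, adjusted p = 0.000182) and kept 39.7% of its control mean. SF1 replicate 3 was the highest SF1 array here and for most of the 9 genes. Gli1 had no other probe set.

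Gli2 encodes the factor that carries most of the activating function. It read 926.9, 904.5 and 913.3 units in control and 516.7, 544.2 and 612.9 in SF1. The SF1 mean was 61.0% of the control mean (log2 change -0.70, interval -0.90 to -0.51, adjusted p = 0.000953), and the dimmer Gli2 probe set, made to the same expressed sequence, gave -0.58. Gli3, which mostly yields a repressor, was the tightest of the 9 genes. Its brightest probe set read 502.5, 497.7 and 497.0 units in control and 333.4, 338.5 and 340.3 in SF1, so 67.6% was kept (-0.54, interval -0.70 to -0.38, adjusted p = 0.00135). A second Gli3 probe set gave -0.55 (adjusted p = 0.0018). The dimmest Gli3 probe set, at 52.4 units in control and 49.2 in SF1, gave -0.07 with an interval from -0.25 to 0.12.

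**Figure D1:**
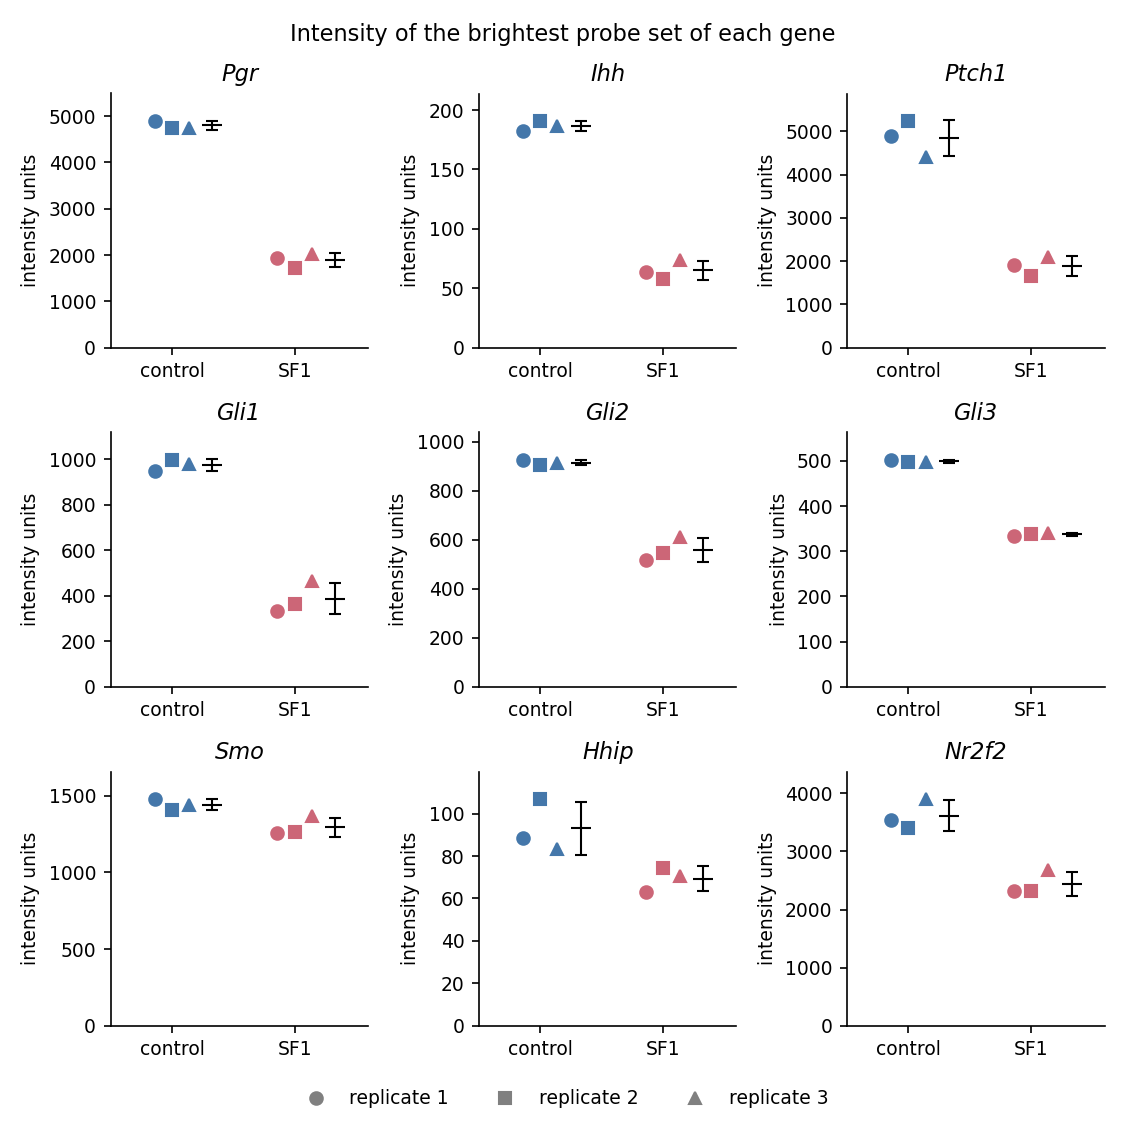
Intensity of the brightest probe set of each of the 9 genes on each array, in the units of the deposited table, with each axis starting at 0. Symbols mark the replicate, and the black bars beside them are the mean and SD of 3 arrays. In all 9 panels every SF1 array is below every control array, with the widest gaps for Pgr, Ihh, Ptch1 and Gli1 and the narrowest for Smo and Hhip.

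Smo, the transducer that PTCH1 controls, did not pass the test. Its brightest probe set read 1481, 1407 and 1441 units in control and 1255, 1263 and 1366 in SF1. These groups lay close together without overlapping, and the SF1 mean was 89.7% of control (log2 change -0.16, interval -0.33 to 0.02, adjusted p = 0.21). The other probe sets gave -0.16 and -0.21 (adjusted p = 0.338 and 0.179), with overlapping groups. A fall larger than 0.33 lies outside the interval of the brightest probe set.

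Hhip, which encodes a membrane protein that binds and sequesters hedgehog ligands, was dim on all 4 of its probe sets. The brightest read 88.6, 107.1 and 83.4 units in control and 62.8, 74.6 and 70.7 in SF1. The groups did not overlap and the log2 change was -0.35 (interval -0.58 to -0.11), but the adjusted p was 0.0565 and Hhip was not called. The other 3 probe sets gave -0.04, -0.29 and -0.22 (adjusted p = 0.853, 0.0608 and 0.329). All 4 changes had the same sign, at levels where the unstated background handling of the deposited values matters most.

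Nr2f2 fell on all 6 of its probe sets. The brightest read 3542, 3403 and 3908 units in control and 2315, 2321 and 2676 in SF1. The groups were clearly apart, and 67.4% of the control mean was kept (log2 change -0.57, interval -0.78 to -0.35, adjusted p = 0.00474). Across the 6 probe sets the log2 changes ran from -0.83 to -0.49, with adjusted p between 0.00112 and 0.0182. The paralogue Nr2f1 gave -0.01 (adjusted p = 0.928) and Nr2f6 0.18 (adjusted p = 0.164).

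**Figure D2:**
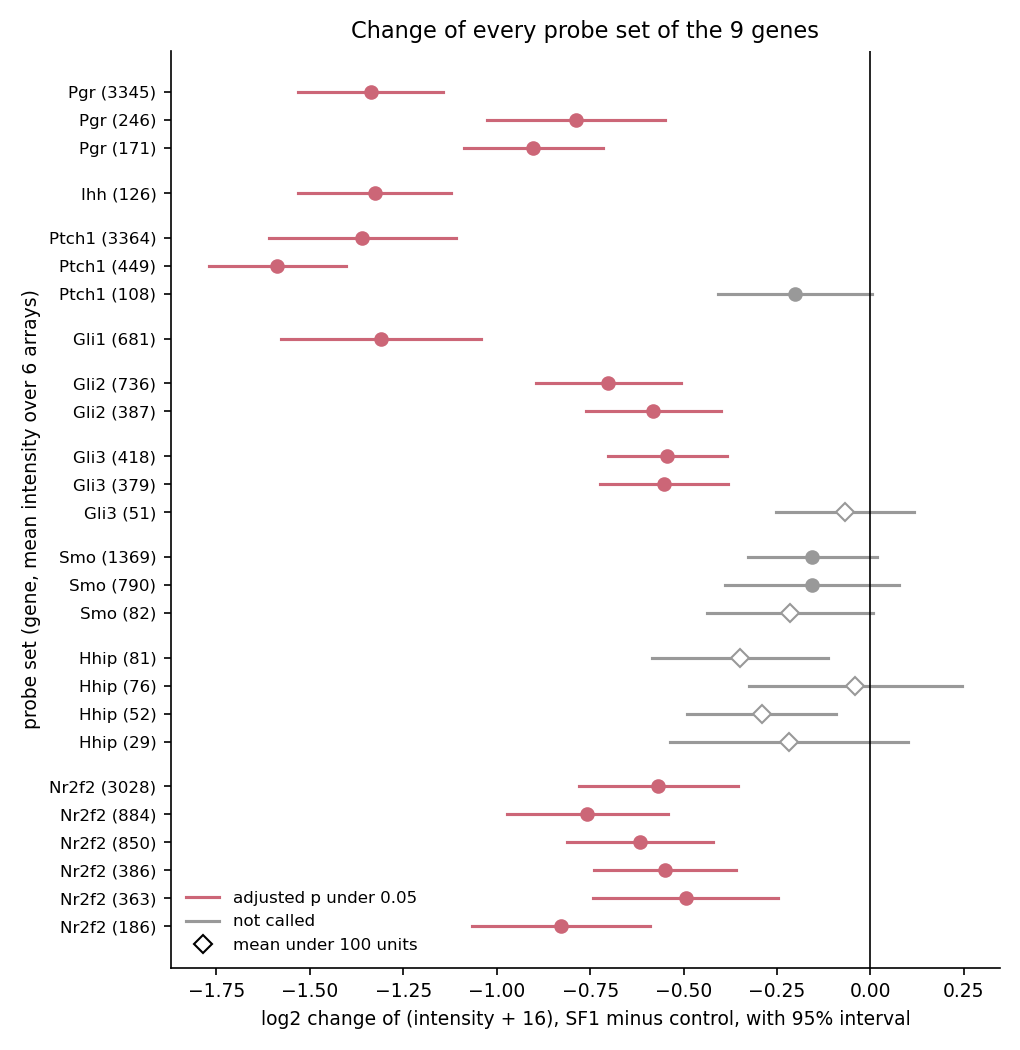
Log2 change of every probe set of the 9 genes (SF1 minus control, on log2 of intensity plus 16) with its 95% interval, and in brackets the mean intensity over 6 arrays. Red marks an adjusted p under 0.05, and open diamonds mark probe sets with a mean under 100 units. All 26 points lie below 0, and the 6 dim probe sets lie between -0.35 and -0.04.

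Promoter sequences are shown for Pgr, at whose locus the Cre allele sits, for Ihh and Ptch1, which fell with it, and for Gli2, where the only motif match among these genes was found. They are 300-base windows around a transcription start from RefSeq (GRCm38.p6), 5′ to 3′ on the gene's strand. RefSeq windows were at hand for 8 of the 9 genes, all but Gli1. Both strands were searched for ACCACCC, the core of the GLI site, for AAGGTCA, the SF1 site, which contains the half-site of other nuclear receptors, and for AGAACA, the half-site of the progesterone response element. These motifs occur in 4.61%, 4.72% and 19.0% of 32851 windows of the same length. Among the 8 windows ACCACCC occurred in 1, that of Gli2, on the reverse strand from position 46 (in capitals), and the other motifs in 0. The windows of Ihh, Ptch1 and Gli2 are rich in G and C (72.7%, 76.3% and 67.3%), that of Pgr less so (43.7%). A match is a description of letters, and windows of this length leave out most regulatory sequence.
Pgr, chr9:8899583-8899882, + strand: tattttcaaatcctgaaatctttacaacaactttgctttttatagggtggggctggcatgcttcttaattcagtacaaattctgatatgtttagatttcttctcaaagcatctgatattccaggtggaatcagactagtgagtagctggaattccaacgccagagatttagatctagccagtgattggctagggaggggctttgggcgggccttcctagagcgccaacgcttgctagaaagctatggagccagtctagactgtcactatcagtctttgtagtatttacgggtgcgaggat
Ihh, chr1:74951623-74951922, - strand: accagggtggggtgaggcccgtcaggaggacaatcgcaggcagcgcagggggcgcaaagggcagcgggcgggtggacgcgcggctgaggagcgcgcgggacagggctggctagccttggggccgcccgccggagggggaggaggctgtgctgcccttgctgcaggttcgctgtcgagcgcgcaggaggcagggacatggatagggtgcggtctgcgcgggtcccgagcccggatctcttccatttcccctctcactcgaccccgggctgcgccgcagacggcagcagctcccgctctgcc
Ptch1, chr13:63565686-63565985, - strand: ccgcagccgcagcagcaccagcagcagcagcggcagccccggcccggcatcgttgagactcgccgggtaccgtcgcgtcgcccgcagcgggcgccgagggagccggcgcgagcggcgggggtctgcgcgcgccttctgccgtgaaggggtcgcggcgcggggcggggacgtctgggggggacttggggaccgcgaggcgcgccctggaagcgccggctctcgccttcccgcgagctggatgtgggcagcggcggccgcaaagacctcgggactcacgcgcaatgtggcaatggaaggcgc
Gli2, chr1:119053570-119053869, - strand: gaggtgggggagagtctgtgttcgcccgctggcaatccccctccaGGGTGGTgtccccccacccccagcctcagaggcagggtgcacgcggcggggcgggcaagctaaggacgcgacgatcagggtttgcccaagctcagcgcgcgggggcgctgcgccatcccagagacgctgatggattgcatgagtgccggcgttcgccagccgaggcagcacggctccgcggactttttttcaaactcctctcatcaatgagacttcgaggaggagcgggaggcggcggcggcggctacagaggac

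The sizes of the falls differed between genes. For every pair of the 9, the difference of their log2 levels was taken on each array and compared between groups. Of 36 pairs, 25 had SF1 and control arrays that did not overlap. The share over gene pairs in general was not taken. Each such pair had an exact permutation p of 0.1, two-sided, which is the smallest that 3 arrays against 3 can give, and 0.144 after adjustment over the 36 pairs, so no pair could pass. The pairs between Pgr, Ihh, Ptch1 or Gli1 and any of Gli2, Gli3, Smo, Hhip and Nr2f2 were apart in 20 of 20 cases, with differences in change from -1.20 to -0.61, the first-named genes falling more. This grouping was chosen after the values were seen. It set the genes with the largest falls against the others, so their separation was in part built in. Within Pgr, Ihh, Ptch1 and Gli1, 0 of 6 pairs were apart, and the differences ran from -0.05 to 0.03. That closeness rested in part on the pseudocount for dim Ihh: with 1 in place of 16, Ihh fell more than Pgr by 0.17 and 2 of the 6 pairs were apart, and with 64 it fell less (Pgr minus Ihh -0.36) and 3 of the 6 were apart. Those added settings left the 20 pairs apart. Among the other 5 genes, Gli2 changed by -0.16 relative to Gli3 and by -0.55 relative to Smo, and Smo by 0.41 relative to Nr2f2, each without overlap.

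The genes with array profiles most like those of Pgr, Ihh and Ptch1 were then sought among all measured genes. Each gene's log2 values were set relative to its own control mean, and the root mean square difference over the 6 arrays was taken against 13686 other genes with a mean of at least 100 units. Ihh passed this cut on its mean over the 6 arrays (125.9 units) only through control, as its SF1 arrays read 57.9 to 73.5 units. The gene nearest to Pgr was Ihh, at a distance of 0.0429 log2 units, and Pgr was in turn the nearest to Ihh. This rank of dim Ihh rested on the pseudocount of 16: in settings added after the data were seen, Ihh ranked 29 in likeness to Pgr with a pseudocount of 1 and 97 with 64, and Pgr ranked 16 and 300 in likeness to Ihh. Next to Pgr came Ap1s3 (0.0558), an adaptor subunit gene of vesicle transport, Epb41l3 (0.0587), a membrane skeleton gene, Lbp (0.0666), which encodes the lipopolysaccharide-binding protein, and Mamdc2 (0.0676). Ptch1 ranked 8 and Gli1 27 in likeness to Pgr (12 and 28 with a pseudocount of 1, 8 and 29 with 64), while Gli2 ranked 319, Nr2f2 478, Gli3 525 and Smo 3824. The nearest to Ihh after Pgr were Lbp, Mamdc2, Epb41l3 and the dipeptidase gene Cndp2 (0.0545 to 0.0664). Nearest to Ptch1 were the ectonucleotidase gene Enpp3 (0.0429), Plekhs1, and Pappa, which encodes a protease of IGF-binding proteins, followed by Ihh and Pgr (0.0658 to 0.0812). With 2 groups, such a distance mainly compares the size of the fall, and it is given as a description.

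Within the SF1 group, most fallen probe sets read highest on the same array. Of the 17 probe sets that fell, 15 read highest in SF1 replicate 3, 1 in SF1 replicate 1 and 1 in SF1 replicate 2. The lowest readings were split, with 8 in replicate 1, 8 in replicate 2 and 1 in replicate 3. Several of the 17 belong to the same gene (6 to Nr2f2), and the share over all fallen probe sets was not taken. Over all probe sets, SF1 replicate 3 was also the SF1 array closest to control (mean correlation 0.9755, against 0.9716 and 0.9711). Without SF1 replicate 3 the log2 change of Pgr was -1.39, that of Ihh -1.40 and that of Gli1 -1.44. SF1 replicate 3 was also the array with the lowest fat cell marker level. Of its group it had the lowest stromal, endothelial, epithelial, leukocyte and mesothelial marker levels and the highest multiciliated marker level. The part of these markers in the result was not tested.

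**Figure D3:**
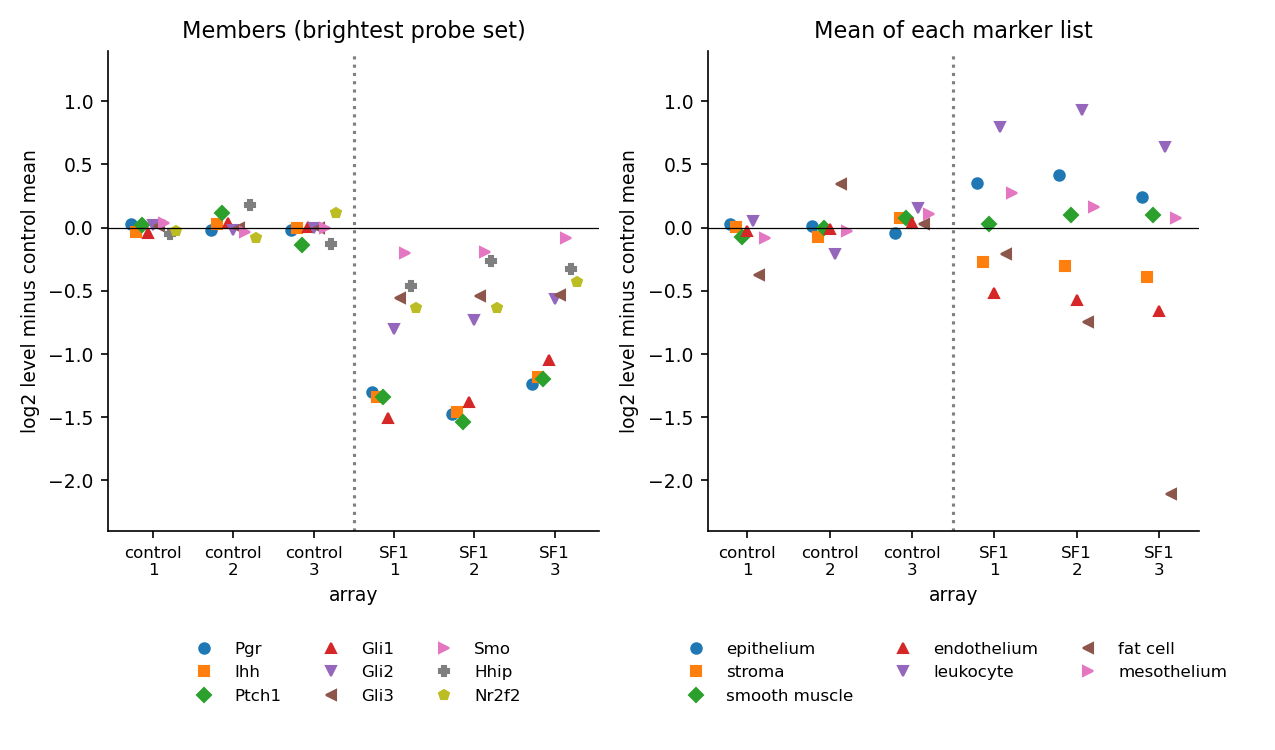
Left, log2 level of the brightest probe set of each of the 9 genes on each array, minus its control mean. Right, the mean log2 level of each marker list, minus its control mean, on the same scale. Pgr, Ihh, Ptch1 and Gli1 lie between -1.54 and -1.05 on the SF1 arrays, Gli2, Gli3 and Nr2f2 between -0.81 and -0.43, and the stromal marker mean between -0.39 and -0.27.

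Cell type markers moved as well, and in bulk tissue fewer cells of a type and less RNA per cell cannot be told apart. Of 12 stromal markers, 5 fell and 0 rose (limma, 6 and 0 at an unadjusted p under 0.05), and their mean log2 level was 11.93 to 12.08 in control and 11.62 to 11.74 in SF1. Twist2 (-1.54) and Pdgfrb (-0.78) fell most. Of 11 measured epithelial markers, 5 rose and 1 fell (mean log2 level 10.35 to 10.42 in control, 10.64 to 10.81 in SF1), led by Krt7 (1.80) and Cdh1 (0.71). Of 10 endothelial markers, whose vessels in part also express Nr2f2, all 10 fell (9.19 to 9.25 in control, 8.55 to 8.70 in SF1), most of all Cdh5 (-0.83) and Ptprb (-0.77). No stromal marker read under 236.2 units and no epithelial marker under 283.8 on any array.

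Each gene was also set against these lists on the same array. Relative to the epithelial marker mean, Ihh, an epithelial gene, changed by -1.66 (SF1 minus control), against -1.33 for Ihh itself. The epithelial marker mean itself changed by 0.34, but its 11 genes ranged from -0.36 to 1.80 (Krt7). Relative to the stromal marker mean, Pgr changed by -1.02, Ptch1 by -1.04 and Gli1 by -0.99. Relative to the smooth muscle marker mean the values were -1.41, -1.44 and -1.39, and Pgr changed by -1.67 relative to epithelium. The stromal marker mean itself changed by -0.32, but its 12 genes ranged from -1.54 (Twist2, a larger fall than that of any of these 3 genes) to 0.20. Gli2 (-0.38), Gli3 (-0.22) and Nr2f2 (-0.25) also stayed lower relative to stroma without overlap of the groups. Hhip overlapped (-0.03), and Smo was higher relative to stroma (0.17). Each comparison without overlap had an exact permutation p of 0.1, the smallest possible, and the part of cell number in any of these values was not tested. The share of all genes without overlap relative to these lists was not taken.

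Beyond the 9 genes, 83 of 91 genes listed for hedgehog signalling and progesterone action were measured. Of these, 19 fell and 11 rose (22.9% and 13.3%, against 8.11% and 8.45% of all genes), with a median log2 change of -0.10, against -0.05 over all genes. The lists too were chosen with earlier results of these data known. Among 8 genes of ligands and their release, 2 rose and 0 fell (0 also at an unadjusted p under 0.05 in limma, and median 0.18). Shh, the gene of the related ligand Sonic hedgehog, read 63.9, 60.3 and 69.8 units in control and 237.2, 217.1 and 176.8 in SF1 on its brightest probe set. It thus rose where Ihh fell (log2 change 1.48, interval 1.23 to 1.73, adjusted p = 7.37e-05). The other Shh probe set was not called, at 64.3 ± 4.46 units in control and 62.8 ± 4.54 in SF1 (-0.03, interval -0.22 to 0.16, adjusted p = 0.85), so the rise rests on 1 of 2 probe sets. Scube3, which encodes a secreted protein of a family that aids hedgehog release, rose by 0.89 (adjusted p = 0.00153).

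Of 6 measured receptors and co-receptors, 2 rose and 1 fell (median -0.18). Cdon (0.37) and Boc (0.38), co-receptors that present the ligand to PTCH1, were higher, and the glypican gene Gpc3 (-0.35) was lower. Both rises stayed called without the third control array. Leaving out another array left 1 risen gene (if that array was the second of either group) or 0 (if it was the first of either group, or the third SF1 array). The call of Gpc3 was lost whichever array was left out, other than the first control array, and after quantile normalization (adjusted p = 0.0521). The values above are those of the brightest probe sets. With the probe sets of each gene averaged, 0 of the 6 genes rose and 3 fell. Cdon and Boc then kept a positive change but were not called.

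Of 19 measured genes listed for signal transduction to the GLI factors, some of which restrain it, 3 fell, 2 rose and 14 were not called (median -0.01). Gpr161, a receptor of the primary cilium that restrains the pathway, fell from 299.1 to 160.7 units (-0.83, adjusted p = 0.000215), and Evc, a ciliary partner of SMO, fell by 0.49 on the log2 scale. The kinase gene Stk36 (1.16) and the ciliary trafficking gene Tulp3 (0.79) rose, each on its brightest probe set only. Genes of multiciliated cells rose strongly in the same arrays, 5 of 6 on that list, with a mean log2 level of 6.70 to 6.83 in control and 9.23 to 9.81 in SF1. The part of these cells in the rise of Stk36 and Tulp3 was not tested. Fallen genes of this group numbered 1 without SF1 replicate 1 or SF1 replicate 2.

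Of 13 genes known as hedgehog targets in mesenchyme, 3 fell and 2 rose (median -0.16). Snai1, a transcription factor gene of mesenchymal cells, read 147.7, 175.6 and 224.1 units in control and 59.5, 63.2 and 51.7 in SF1. It changed by -1.41 (adjusted p = 0.000293), beside -1.36 for Ptch1 and -1.31 for Gli1. Bcl2, a survival gene, fell on all of its 5 probe sets (-0.73 on the brightest). Sfrp1, a secreted Wnt antagonist gene, rose (1.30), and so did Mycn (1.01), the latter on its brightest probe set only.

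Of 13 genes listed around Ihh and Nr2f2 in the uterine stroma, 5 fell and 2 rose (median -0.15). The list is mixed, as it also holds Nr2f1, Nr2f6 and the uterine identity genes Hoxa10, Hoxa11 and Hand2. Whether its genes respond to Ihh or Nr2f2 here was not tested. Bmp2, a growth factor gene needed for decidualization, read 577.4, 617.4 and 515.8 units in control and 239.8, 229.6 and 266.9 in SF1 (-1.16, adjusted p = 0.000114). Hoxa11, a uterine patterning gene, fell by 1.05 on the log2 scale. Wnt4, a stromal ligand gene that acts with Bmp2, went the other way, from 669.1, 699.8 and 805.1 to 1216, 1289 and 1420 units (0.84, adjusted p = 0.000788). Fgf1 rose (0.51) on 1 of its 3 probe sets, a call lost without control replicate 1, where 1 gene of this group rose.

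Of 11 measured partners and chaperones of the progesterone receptor, 1 rose and 0 fell (limma, and 2 and 2 at an unadjusted p under 0.05, with a median of -0.16). The gene that rose was Fkbp5 (1.10), which encodes a chaperone partner of steroid receptors and is itself induced by progestins and glucocorticoids, and it rose on 1 of its 3 probe sets. After quantile normalization the estrogen receptor gene Esr1 was called lower (-0.29, adjusted p = 0.0442), which it was not in the deposited values (-0.19, adjusted p = 0.118). Of 13 measured progesterone-responsive genes, 7 fell and 0 rose (limma, and 7 and 1 at an unadjusted p under 0.05), and their median of -0.39 was the lowest of the 7 groups. Msx1, a homeobox gene of the receptive uterus, read 2569, 2619 and 2443 units in control and 971.0, 826.9 and 915.4 in SF1 (-1.48, adjusted p = 2.09e-05). Sox17, an epithelial and vascular transcription factor gene, fell by 1.05 on the log2 scale. Only 4 genes of this group fell when the second control array, the first SF1 array or the second SF1 array was left out. Leaving out 1 SF1 array also brought 1 rise, of Acod1 without the first or the second and of Prap1 without the third. Acod1, an inflammatory gene, read 84.9, 98.4 and 80.1 units in control and 182.4, 1494 and 288.7 in SF1, the high value lying on the array that was also high in S100a8 (log2 change 2.12, adjusted p = 0.0540). Acod1 and Prap1 are named for these calls, after their values were seen.

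**Figure D4:**
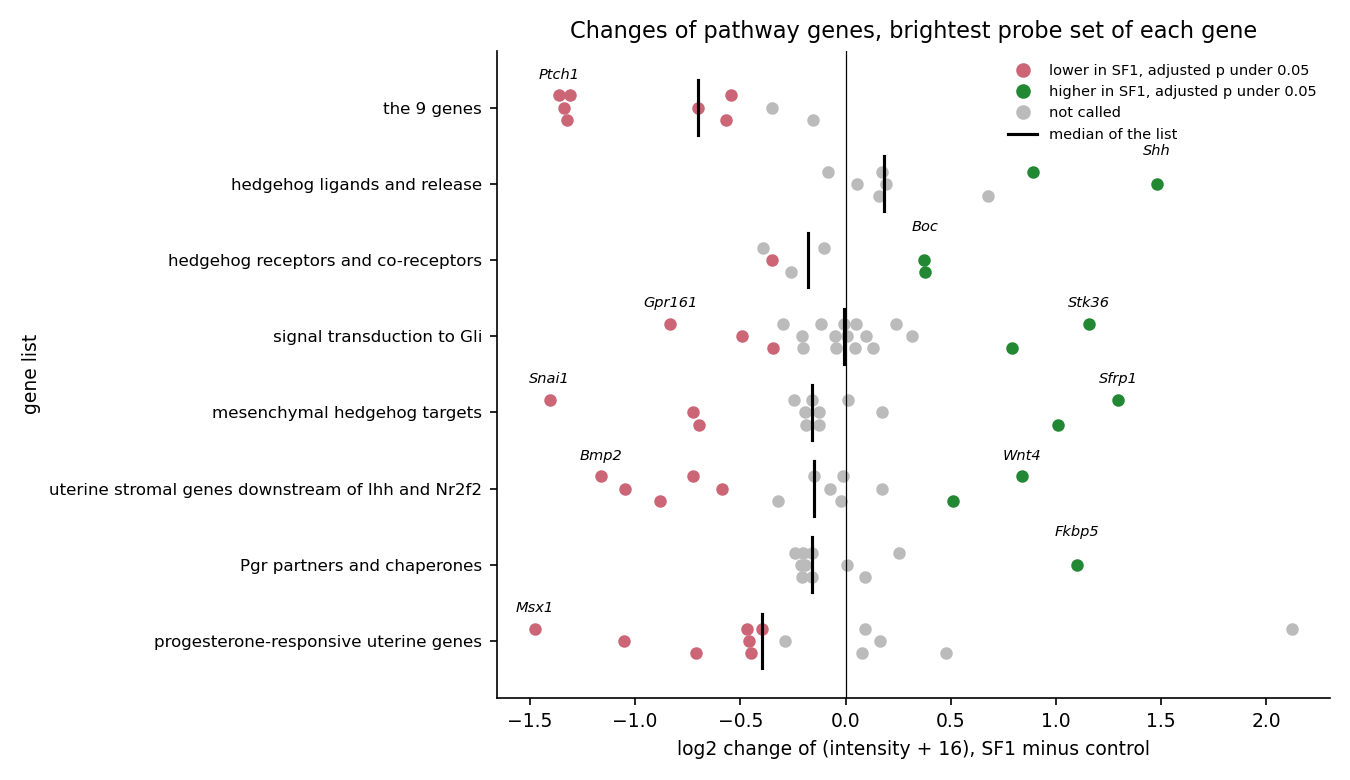
Log2 change (SF1 minus control, brightest probe set) of each measured gene of the 9 described and of 7 lists of related genes, with the median of each list as a black bar. Red and green mark an adjusted p under 0.05, and names mark the outermost called genes. The grey point at 2.12 is Acod1. The 9 genes all lie below 0, while the other lists hold called genes on both sides, except ligands and release and Pgr partners (risen only) and progesterone-responsive genes (fallen only).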

How the data were processed

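Each of 6 arrays (Affymetrix Mouse Genome 430 2.0) held total RNA pooled from 2 mice, 3 arrays a group, grouped by the sample titles. The deposited table holds linear probe set intensity values. Background correction, normalization and summarization by the authors are not given in the sources used here, and would affect dim probe sets most. Of the probe sets, 64 Affymetrix controls were set aside and 45037 tested. A platform annotation gave 34945 of them 1 gene symbol, 932 several and 9160 none, and only those with 1 were named. The brightest probe set, by mean over the arrays, represents a gene.

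The log2 of each intensity plus 16 was fitted in limma 3.58.1 (R 4.3.3; lmFit and eBayes), with Benjamini-Hochberg adjustment over all tested probe sets and a call at an adjusted p under 0.05. The code of this fit was tested on simulated data. Adjusted p-values of genes are from this fit unless an alternative is named beside them. Single comparisons within arrays used exact permutation tests. Promoters were read, and figures drawn, in Python 3.11.15 with pandas 2.3.3 and matplotlib 3.10.9.

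The 9 genes and all lists were chosen with earlier results of these data known. Beside them, named genes are the called genes with the largest rise and fall of each pathway list (at most 2 each), at most 2 of each marker list, and the 5 profiles nearest to Pgr, Ihh and Ptch1. Nr2f1, Nr2f6, Esr1, Acod1, Prap1 and S100a8 fall outside this rule and were named after their values were seen. Alternatives were quantile normalization, median centring, a filter at 100 units, pseudocounts of 1 and 64, a replicate block, array weights, the trend and robust options of eBayes, leaving out single arrays, an adjusted p under 0.01, and averaging the probe sets of each gene. Precision is limited by 3 arrays a group, with a median SD of log2 values of 0.108 in control and 0.100 in SF1.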

Additional observations from a re-analysis of the deposited data

How the results depend on the processing

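The falls of Pgr, Ihh, Ptch1, Gli1, Gli2, Gli3 and Nr2f2 kept their direction and their call under each of 16 alternatives, with log2 changes from -1.39 to -1.01 for Pgr, -1.51 to -0.96 for Ihh, -1.44 to -1.05 for Ptch1, -1.44 to -1.21 for Gli1, -0.77 to -0.64 for Gli2, -0.56 to -0.39 for Gli3 and -0.64 to -0.51 for Nr2f2. Smo was called under none of its 16. Hhip was called with array weights (-0.32, adjusted p = 0.0491) and under none of its other 14, while adjusted p-values reached 0.173; the filter at 100 units removed it. Fallen probe sets of the 9 genes numbered 16 to 17 with an array left out. Fallen pathway genes numbered 19, and 12 at an adjusted p under 0.01. Risen ones numbered 11, and 7 when probe sets of a gene were averaged. Of 224 counts for single lists under the alternatives, 177 stayed within 1.5 times, 30 were lower and 17 higher. Over all probe sets, 6291 were called, 4095 with the replicate block, 3771 without SF1 replicate 1, 4150 without control replicate 1 and 2975 at an adjusted p under 0.01. Replicate numbers are shared between the groups, and the sample titles do not say what they stand for. Over all probe sets, same-numbered arrays did not deviate together from their group means (correlations of -0.06, -0.10 and -0.18). A batch that touched only part of the probe sets was not tested. With the replicate block, 7 of the 9 genes fell (highest adjusted p among them 0.0115) and 16 of their probe sets. In the main fit, Hhip was not called, nor were the dimmest probe sets of Ptch1, Gli3 and Smo (means of 107.6, 50.8 and 81.7 units). Smo was not called on its brighter probe sets either. The part of low signal in this was not tested.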

Other observations

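Other cell type lists moved with the fall of the 9 genes, and their part in it was not tested. Of 10 leukocyte markers, 8 rose and 0 fell (limma, 0 also at an unadjusted p under 0.05), with a mean log2 level of 8.12 to 8.49 in control and 8.97 to 9.26 in SF1, led by the T cell gene Cd3g (2.06) and the macrophage gene Aif1 (1.45). Among multiciliated and oviduct markers, Ccdc153 (5.32) and Dynlrb2 (4.63) rose most, and 1 of 6 fell. Of 6 gland markers, the forkhead gene Foxa2 rose (0.80) and the chemokine gene Cxcl15 fell (-2.36). Of 6 uterine identity genes, 5 fell, most of all Msx1 and Foxl2 (-1.17). Smooth muscle markers gave 0 calls of 10 (limma, 3 at an unadjusted p under 0.05), with a mean log2 level of 11.14 to 11.30 in control and 11.25 to 11.32 in SF1. Mesothelium markers gave 0 calls of 5 (limma, 0 at an unadjusted p under 0.05). Of 4 measured fat cell markers, Retn fell (-0.64, adjusted p = 0.0492), a call close to the threshold. The SF1 and control arrays overlapped for Retn and for the other fat cell markers.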
